A study of Drosophila melanogaster with 8 samples.

Results

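The comparison described here sets adult Drosophila melanogaster females of genotype In(2)A4/In(2)A4, called A4, against adult females of genotype A12/A12, called A12. It was chosen by genotype, stage and sex as the labels give them, and it holds 4 of the 8 libraries of the series, 2 from A4 adults and 2 from A12 adults. All adults were females 2 to 3 days old from flies kept on standard medium at 18 °C, and RNA came from whole animals. In(2)A4 is a rearrangement of chromosome 2, which the A4 females carried on both homologues, and A12 stood for the wild type of the design. The other 4 libraries, 2 each from A4 and A12 female larvae of the third instar, entered the fit for its estimate of the spread and were used for one comparison of stages. A4 larvae were picked from a stock balanced over CyO-GFP as homozygotes without fluorescence. How the A4 adults were picked is not given in the sources used here, and neither is whether the replicates were separate cultures. The p-values therefore measure only the spread between libraries, which may be technical.

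The series presents the A4 animals as showing position effect variegation. In this phenomenon a rearrangement brings a normally active gene next to heterochromatin, the compact chromatin around centromeres, and the gene is then switched off in some cells and left on in others. The protein HP1a and the histone methyltransferase Su(var)3-9 are known modifiers of such silencing in flies. Genes that normally reside in heterochromatin, such as lt and rl, are known in flies to need that surrounding for full activity. The question put to the adults was which genes differ in level between A4 and A12.

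Expression was given as FPKM, the fragments mapped to a gene model scaled to its length and to the size of the library, for 15296 gene models in each library. No read counts were given, so absolute depth was unknown. The confidence bounds given with weak values put the depth of the adult libraries between 0.804 and 1.15 times that of A4 adults replicate 1. All 11 markers of adult females, the yolk protein, vitelline membrane and chorion genes, stood at 1 FPKM or more in each adult library, and their summed level ran from 10300 to 21300 FPKM. The 10 larval markers summed to between 63.5 and 94.0 FPKM in adults, and roX1 and roX2, the male-specific dosage compensation RNAs, stayed below 1 FPKM in every adult library. Of 64 testis genes 11 to 12 stood at 1 FPKM or more in each adult library. Their sums of 444 to 566 FPKM were above the 213 FPKM of A4 larvae replicate 2. Of 36 male accessory gland genes 1 to 3 stood at 1 FPKM or more, with sums of 5.7 to 10.9 FPKM in adults. Among the larval libraries, A4 larvae replicate 2 stood apart, with 47.3 FPKM summed over roX1 and roX2 and 35 of 64 testis genes at 1 FPKM or more, against 7 to 10 of 64 in the other larval libraries. Across the tested genes the log2(FPKM + 1) values of the 2 A4 adult libraries correlated at 0.961 and those of the 2 A12 adult libraries at 0.949. Between genotypes the correlation ran from 0.929 to 0.952, so that 1 of the 4 pairs between genotypes was as alike as the A12 replicates.

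A gene was tested where its 4 adult libraries averaged 1 FPKM or more, and of the 9170 such genes 74 passed an adjusted p of 0.05, which is 0.807% of those tested. In A4 females 23 genes were higher, 0.251% of those tested, and 51 were lower, 0.556%. Below, a log2 change is A4 minus A12 on the log2(FPKM + 1) scale after median centring of libraries, given with its standard error, and it understates the change of weakly expressed genes. Changes were tested with limma and adjusted p-values are by Benjamini and Hochberg over all 9170 genes. The 2 A4 libraries did not overlap the 2 A12 libraries in any of the 74 genes, but this also held for 43.7% of all tested genes. An exact permutation test of 2 against 2 libraries cannot go below a two-sided p of 0.333, so every call rests on the spread shared across genes and groups. The smallest called change was 0.99 in size, the median change over all tested genes was -0.02, and 1382 genes had an unadjusted p under 0.05. Leaving out 1 library leaves its group with a single library, whose spread is then taken from the other groups. Under that stricter condition 32 of the 74 calls passed whichever adult library was left out.

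**Figure D1:**
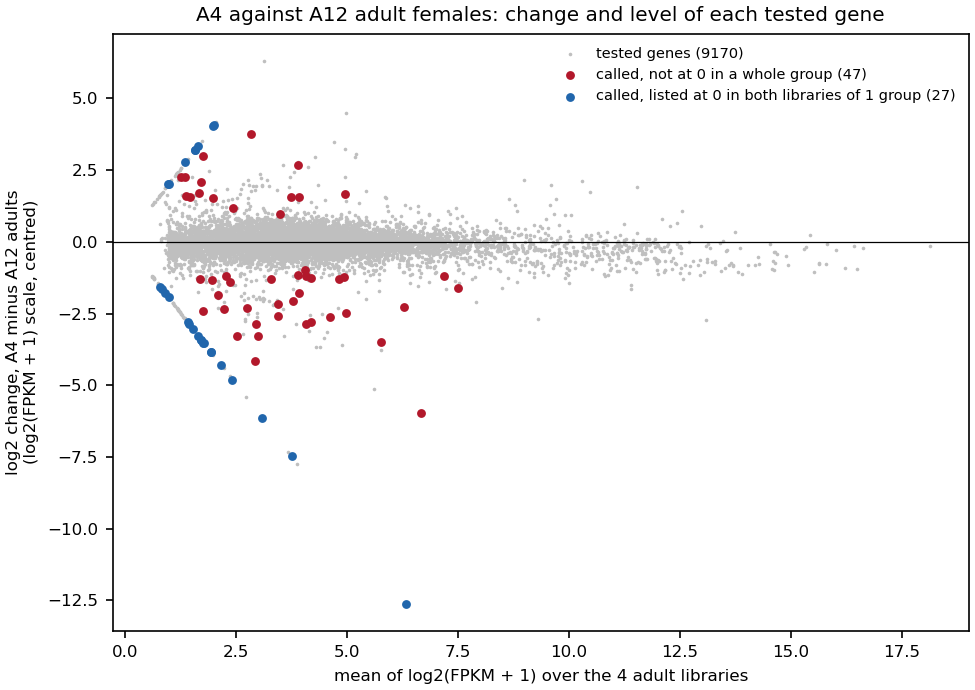
Log2 change between A4 and A12 adult females (vertical axis) against the mean log2(FPKM + 1) over the 4 adult libraries (horizontal axis) for 9170 tested genes in grey. The 47 called genes with a value in both groups are red, and the 27 called genes listed at 0 in both libraries of 1 group are blue and lie on the 2 lines that a 0 in a whole group draws.

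The called genes fell into 2 kinds. In 27 of the 74, both libraries of a group were listed at exactly 0, and these are described apart further on. The other 47 had values in both groups, of which 32 were lower in A4, by a median of 5.26-fold and a range of 2.14-fold to 62.5-fold, and 15 were higher, by a median of 5.9-fold and a range of 2.05-fold to 38.6-fold. They were genes of ordinary abundance, with a median of 22.4 FPKM in the group where they were higher, against 17.2 FPKM over all tested genes. Of these 47, 13 passed in each fit with a library left out. They are LysC, LysX, Jon65Aii, Mcm10, CG31681, CG43090, CG32834, CG43074, CG9766, mth and CG2893, which were lower in A4, and CG3588 and CG1304, which were higher.

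**Figure D2:**
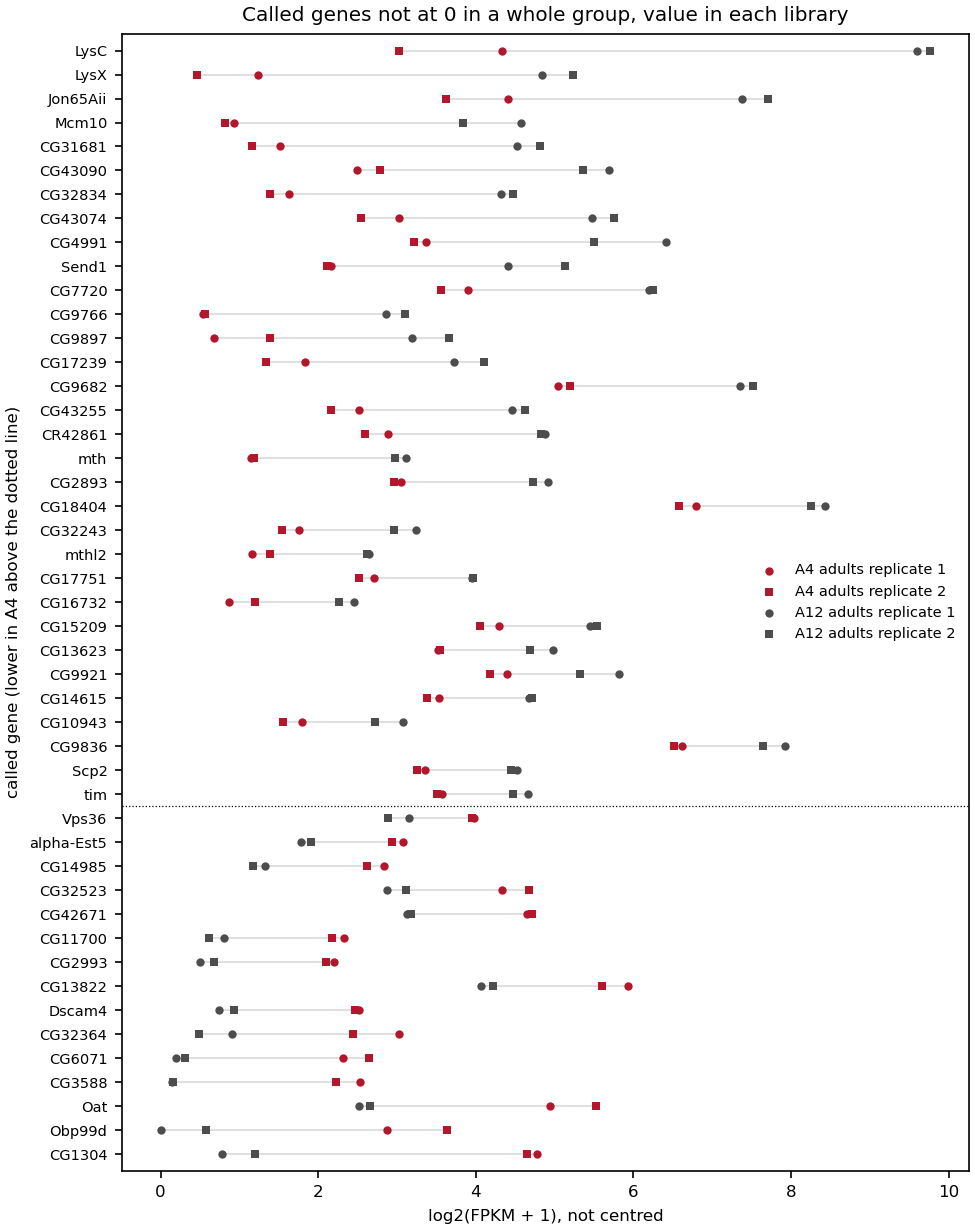
The 47 called genes with values in both groups, each on its own line, with log2(FPKM + 1) in the 4 adult libraries on the horizontal axis (A4 red, A12 grey, circles for replicate 1 and squares for replicate 2). The 32 genes above the dotted line were lower in A4 and the 15 below it higher, and the 2 genotypes do not overlap in any of them.

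The largest difference among genes with values in both groups was in lysozymes, enzymes that cut the bacterial cell wall and that flies use in the gut to digest bacteria. LysC, at 3L 1210485 to 1210971 in build dm3, stood at 19.1 and 7.15 FPKM in A4 adults and at 772 and 871 FPKM in A12 adults. Every A12 value was thus far above both A4 values, and the log2 change was -5.97 ± 0.59 (adjusted p = 0.00711). LysX, 15182 bp away on the same arm, stood at 1.35 and 0.383 FPKM in A4 and at 27.6 and 36.8 FPKM in A12, a log2 change of -4.15 ± 0.38 (adjusted p = 0.00521). Of the 6 lysozyme genes tested, 2 fell and none rose, beside 0.556% lower and 0.251% higher over all tested genes. All 6 had both A4 libraries below both A12 libraries, which held for 27.3% of all tested genes. Their median log2 change was -2.64. LysB, at 20.7 and 8.81 against 213 and 196 FPKM, did not pass, with a log2 change of -3.78 ± 0.60 (adjusted p = 0.0567). LysS, LysE and LysP had log2 changes of -1.51, -0.99 and -0.36 and did not pass either. RefSeq lists LysC as a pseudogene and its model overlaps LysD, so its values are uncertain, and how fragments were split among related lysozyme copies was not tested. In whole animals fewer cells of a type and less RNA per cell cannot be told apart, here or in any result below.

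Serine proteases, the trypsin-like family that serves digestion, immunity and reproduction, made up 9 of the 74 calls. RefSeq gives a serine protease or protease homologue synonym to 133 tested genes, of which 7 fell and 2 rose in A4, beside 0.556% lower and 0.251% higher over all tested genes. Among the 7 is CG31219, which is listed at 0 in both A4 libraries. Their median log2 change was -0.15, beside -0.02 over all tested genes, and it ran from -0.39 without A12 adults replicate 1 to 0.10 without A12 adults replicate 2. This grouping was made after the values were seen. The Jonah genes encode proteases of the midgut, and Jon65Aii, at 3L 6045421 to 6046315, stood at 20.2 and 11.3 FPKM in A4 against 165 and 209 FPKM in A12. Its log2 change was -3.50 ± 0.34 (adjusted p = 0.00696). Its neighbour in name Jon65Ai stood at 88.0 and 76.9 against 233 and 310 FPKM and did not pass (log2 change -1.66 ± 0.30, adjusted p = 0.0868). Of 40 tested gut proteases, maltases and amylases Jon65Aii was the 1 that passed, and the median of that list was -0.03, with 20 members above 0 and 20 below, and ran from -0.35 to 0.26 over the fits without A12 adults replicate 1 or 2.

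The protease that rose most was CG1304, at X 20835548 to 20836443. It stood at 26.5 and 24.1 FPKM in A4 and at 0.717 and 1.30 FPKM in A12. Expression in A12 was thus close to the floor of the filter, and A4 was 25.1-fold higher, a log2 change of 3.76 ± 0.23 (adjusted p = 0.00109). CG32523, another protease gene on the X, stood at 19.2 and 24.5 against 6.34 and 7.64 FPKM (log2 change 1.55 ± 0.23, adjusted p = 0.0431). It lay just inside the threshold and did not pass when any 1 of the 8 libraries was left out, with adjusted p-values from 0.0637 to 0.242.

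A further 5 protease calls lay at 2 places, and 4 of them are on the list of spermathecal and female tract proteases. The spermathecae are the sperm storage organs of the female, and their secretory cells make serine proteases such as Send1. At 2L 2254176 to 2255050, Send1 stood at 3.48 and 3.31 FPKM in A4 against 20.2 and 34.1 FPKM in A12 (log2 change -2.60 ± 0.31, adjusted p = 0.0151). CG17239 lies 1834 bp to one side of it and CG31681 30874 bp to the other, with other gene models between them. CG17239 stood at 2.56 and 1.52 against 12.2 and 16.2 FPKM (log2 change -2.29 ± 0.32, adjusted p = 0.0326), and CG31681 at 1.87 and 1.24 against 22.1 and 27.1 FPKM (log2 change -3.29 ± 0.23, adjusted p = 0.00161). All 3 were thus expressed several-fold lower in both A4 libraries than in either A12 library.

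On the other arm, CG32834 at 2R 18870128 to 18871798 stood at 2.09 and 1.63 FPKM in A4 against 19.0 and 21.2 FPKM in A12 (log2 change -2.85 ± 0.21, adjusted p = 0.00171). CG9897, at 18872947 to 18873851 on the same arm, stood at 0.595 and 1.63 against 8.16 and 11.6 FPKM (log2 change -2.36 ± 0.35, adjusted p = 0.0398). The antisense RNA CR42742 overlaps CG9897 and was also called, from 2.55 and 1.91 FPKM in A12 and a listed 0 in both A4 libraries. Strand is not known for these values, so the reads of CG9897 and CR42742 cannot be told apart. The whole list of spermathecal and female tract proteases also holds genes of other kinds, such as the octopamine receptor gene Oamb and the esterase gene Est-6. Of its 20 members 13 were tested, 4 fell and none rose, beside 0.556% lower and 0.251% higher over all tested genes. The median log2 change of the list was -0.44. Both A4 libraries were below both A12 libraries in 7 of the 13, against 27.3% of all tested genes, and above them in 2, against 16.4%. CG31681 was not on that list.

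Of these calls, CG31681 and CG32834 passed whichever library was left out. Send1 did not pass without A4 adults replicate 1 (adjusted p = 0.0724) or replicate 2 (0.0893). CG17239 failed without A4 adults replicate 1 (0.0728) or 2 (0.176), without A12 adults replicate 2 (0.141) and without either A4 larval library (0.0799 and 0.0798). CG9897 failed without A4 adults replicate 1 (0.112), without A12 adults replicate 2 (0.156) and without any 1 of the larval libraries (0.0767 to 0.0972). CR42742 failed without any 1 of the 8 libraries, with adjusted p-values up to 0.117.

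Mcm10, a factor needed to load and start the replication machinery at origins, was the 1 gene called of 23 tested replication licensing genes. At 2L 21179941 to 21182812 it stood at 0.901 and 0.761 FPKM in A4 against 22.8 and 13.3 FPKM in A12. The A12 females thus held 21.7 times the A4 level, and the log2 change was -3.30 ± 0.23 (adjusted p = 0.00158). The model overlaps that of Ret. Of the 23 licensing genes 19 had a log2 change above 0, against 47.2% of all tested genes, and the median of the list was 0.30, with 0.19 without A4 adults replicate 1. Besides Mcm10, Orc6, Psf2 and Sld5 lay below 0, at -0.38, -0.37 and -0.04. Orc1, the large subunit of the origin recognition complex, stood at 39.4 and 42.8 against 28.3 and 23.6 FPKM (log2 change 0.69 ± 0.17, adjusted p = 0.167), the smallest p among the uncalled members.

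The family of mth, a G protein-coupled receptor whose loss is known to lengthen fly lifespan, had 9 members tested. Of these 2 fell and none rose, beside 0.556% lower and 0.251% higher over all tested genes. mth, at 3L 343378 to 347168, stood at 1.22 and 1.27 FPKM in A4 and at 7.63 and 6.87 FPKM in A12. The replicates were nearly alike in both groups, and the log2 change was -1.84 ± 0.14 (adjusted p = 0.00196). mthl2 stood at 1.23 and 1.62 against 5.28 and 5.16 FPKM (log2 change -1.33 ± 0.18, adjusted p = 0.0286), and it did not pass when any 1 of the 8 libraries was left out, with adjusted p-values from 0.0531 to 0.134. The median of the family, a list added after the values were seen, was -0.24, and ran from -0.38 without A12 adults replicate 2 to -0.11 without A4 adults replicate 1. Neither mth nor mthl2 passed in the fit of the adult libraries only with a block for replicate number.

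CG2893, which RefSeq lists as zyd, encodes a potassium-dependent sodium and calcium exchanger that acts in glia. It is the 1 called gene on a heterochromatic scaffold, at XHet 2141 to 13174, and stood at 7.28 and 6.8 FPKM in A4 against 29.3 and 25.4 FPKM in A12 (log2 change -1.78 ± 0.14, adjusted p = 0.00236). The clock gene tim, whose protein pairs with that of per to shut down its own transcription, stood at 10.9 and 10.4 against 24.3 and 21.3 FPKM. Its log2 change was -0.99 ± 0.14 (adjusted p = 0.0326), and it failed without any 1 of the 8 libraries, at adjusted p-values from 0.0669 to 0.191. It was the 1 called of 14 clock genes, and vri, a target of the same loop, stood at 5.81 and 6.66 against 12.8 and 10.3 FPKM without passing (log2 change -0.75 ± 0.17, adjusted p = 0.148). Time of collection is not given in the sources used here.

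Several further genes that fell have no role stated here or form pairs. CG43090 on the X stood at 4.63 and 5.90 FPKM in A4 against 50.7 and 40.0 FPKM in A12 (log2 change -2.85 ± 0.18). CG43074 on 3L stood at 7.12 and 4.83 against 43.3 and 52.8 FPKM (-2.79 ± 0.22). CG9766, listed as flip in RefSeq, stood at 0.456 and 0.484 against 6.29 and 7.61 FPKM (-2.39 ± 0.23). These 3 uncharacterised genes had adjusted p-values of 0.00117, 0.00236 and 0.00674 and separated the genotypes by 8.04-fold or more. With a pseudocount of 0.1 neither CG43074 (adjusted p = 0.0629) nor CG9766 (0.133) passed. Of the other calls named here with values in both groups, Send1, CG9897, CG17239, CG18404, tim, CG32523, CG32364, Obp99d, CG9921 and CG16732 also failed at that pseudocount. Their adjusted p-values ran from 0.052 to 0.31.

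CG9682 and CG18404 lie 351 bp apart on 3R and fell together. CG9682 stood at 32.1 and 35.8 FPKM in A4 against 162 and 182 FPKM in A12 (log2 change -2.27 ± 0.25, adjusted p = 0.0104), and CG18404 at 110 and 94.5 against 343 and 304 FPKM (log2 change -1.62 ± 0.23, adjusted p = 0.0359). CG9682 failed without A4 adults replicate 1 (0.0695) or 2 (0.0596) and without A12 adults replicate 2 (0.0607). CG18404 failed without any 1 of the 4 adult libraries and without either A12 larval library, at adjusted p-values from 0.0571 to 0.211. The iron-sulfur cluster gene CG9836, listed as IscU, which encodes the scaffold on which such clusters are built in mitochondria, stood at 97.5 and 90.6 against 243 and 199 FPKM (log2 change -1.18 ± 0.15, adjusted p = 0.017). It failed without any 1 of the 4 adult libraries, at adjusted p-values from 0.0685 to 0.142.

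Among the genes that rose, CG3588 on the X stood at 4.77 and 3.70 FPKM in A4 against 0.104 and 0.116 FPKM in A12. It was close to absent in A12 and 38.6-fold higher in A4, with a log2 change of 2.27 ± 0.22 (adjusted p = 0.00674). Its model overlaps that of kirre, and it did not pass in a fit of the adult libraries alone (adjusted p = 0.0728). Oat, ornithine aminotransferase, which links ornithine to proline and glutamate metabolism, stood at 29.7 and 45.2 FPKM in A4 against 4.71 and 5.29 FPKM in A12 (log2 change 2.69 ± 0.29, adjusted p = 0.0104). It failed without A4 adults replicate 2 (adjusted p = 0.0509). Obp99d, an odorant-binding protein gene, stood at 6.33 and 11.4 FPKM in A4 against a listed 0 and 0.492 FPKM in A12 (log2 change 3.00 ± 0.36, adjusted p = 0.0161), and it also failed without A4 adults replicate 2 (adjusted p = 0.0705). It was the 1 called of 32 tested odorant-binding and chemosensory genes.

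CG32364 and Dscam4 lie 27903 bp apart on 3L and both rose. CG8012, which lies between them, went the other way without passing (log2 change -1.99 ± 0.38, adjusted p = 0.107). CG32364, listed in RefSeq as tut, a gene known for its part in ending germ cell proliferation in the testis, stood at 7.14 and 4.42 against 0.868 and 0.405 FPKM (log2 change 2.07 ± 0.28, adjusted p = 0.0277). Dscam4, a cell adhesion molecule of the immunoglobulin superfamily, stood at 4.75 and 4.52 against 0.674 and 0.915 FPKM (log2 change 1.69 ± 0.20, adjusted p = 0.0151). CG32364 failed without any 1 of the 4 adult libraries (0.0537 to 0.116) and without either A12 larval library (0.0572 and 0.0571). Dscam4 failed without A4 adults replicate 1 (0.0724) or 2 (0.098). CG6071, also on 3L, stood at 3.97 and 5.24 against 0.141 and 0.245 FPKM (log2 change 2.26 ± 0.26, adjusted p = 0.0123) and failed without A4 adults replicate 2 (adjusted p = 0.0706).

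CG13822, which RefSeq lists as GILT3, a lysosomal thiol reductase gene, was the most abundant of the genes that rose. It stood at 60 and 47.4 FPKM in A4 against 15.7 and 17.7 FPKM in A12 (log2 change 1.66 ± 0.18, adjusted p = 0.00977), and failed without A4 adults replicate 1 (adjusted p = 0.0617). No member of the antimicrobial peptide and recognition list passed, of 37 tested, and its median log2 change was 0.55, with 26 members above 0 and 11 below. The median was 0.18 without A4 adults replicate 1 and 0.87 without A4 adults replicate 2. In that list Drsl4, a relative of the antifungal peptide drosomycin, stood at 86.5 and 109 FPKM in A4 and 31.5 and 35.1 FPKM in A12 (log2 change 1.55 ± 0.27, adjusted p = 0.08). Drosomycin itself, Drs, and the recognition protein gene PGRP-SC1a had log2 changes of -0.34 and -1.26 without passing.

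Genes tied to heterochromatin made no large contribution to the calls, but their small changes lay mostly to one side. Of 31 tested genes residing in pericentromeric heterochromatin none passed, 30 had a log2 change below 0, and the median was -0.42. Both A4 libraries were below both A12 libraries in 22 of the 31, against 27.3% of all tested genes, and 52.8% of all tested genes lay below 0. The light gene lt, a classic resident of 2L heterochromatin, stood at 11.2 and 12 FPKM in A4 and at 18.5 and 14.5 FPKM in A12 (log2 change -0.42 ± 0.14, adjusted p = 0.264). The MAP kinase gene rl in 2R heterochromatin stood at 14.1 and 11.6 against 22.5 and 18.0 FPKM (log2 change -0.58 ± 0.16, adjusted p = 0.2). CG40178, the member with the smallest p, stood at 5.1 and 5.29 against 11 and 8.62 FPKM (log2 change -0.76 ± 0.17, adjusted p = 0.148). The median of the list stayed between -0.34 and -0.55 whichever adult library was left out.

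The same was seen by position. Of 50 genes tested on the heterochromatic scaffolds, 47 lay below 0 with a median log2 change of -0.44, and CG2893 was the 1 called. On chromosome 4, a small chromosome rich in heterochromatin, 63 of 74 genes lay below 0 with a median of -0.30, and the 1 call there was the antisense RNA CR43957, listed at 0 in both A4 libraries. These 2 lists were added after the values were seen, and the scaffolds share members with the pericentromeric list.

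The list of heterochromatin proteins and variegation modifiers lay on the other side. It also holds insulator proteins, such as CTCF and su(Hw), and chromatin regulators that do not build heterochromatin, such as brm and ash1. Of 44 tested entries, in which mod(mdg4) counts more than once, none passed. A log2 change above 0 was seen in 40, against 47.2% of all tested genes, and the median was 0.29. Both A4 libraries were above both A12 libraries in 16 of the 44, against 16.4% of all tested genes. The gene of HP1a stood at 64.6 and 47.8 FPKM in A4 and at 67.7 and 53.6 FPKM in A12, and the groups overlapped. Hmt4-20, a histone H4 methyltransferase gene, stood at 16.7 and 16.1 against 11.6 and 8.10 FPKM (log2 change 0.74 ± 0.19, adjusted p = 0.184). For Su(var)3-9 the files give 8.77 FPKM in A4 adults replicate 2 and 0 in the other 3 adult libraries. Its values allow no comparison, although it is counted among the 40 above 0. The eye colour gene w, often used to display variegation, stood at 2.84 and 2.39 against 2.42 and 2.30 FPKM, and the groups overlapped. The median of the list ran from 0.17 to 0.40 over the fits without 1 adult library. A lean above 0 was not particular to this list. It held for 82.6% of the replication licensing genes and 72.0% of 25 cell cycle genes, with medians of 0.30 and 0.18. It also held for 71.1% of 38 oogenesis genes and 70.0% of 20 piRNA pathway genes, with medians of 0.19 and 0.14.

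No gene of the eggshell lists passed. All 14 members of the vitelline membrane list, which also holds fs(1)K10, dec-1 and ndl, had a log2 change above 0, against 47.2% of all tested genes, with a median of 0.51. In 9 of the 14 both A4 libraries were above both A12 libraries, against 16.4% of all tested genes. Vml encodes a protein of the vitelline membrane, the inner layer of the shell, which follicle cells secrete. Vml stood at 25.8 and 21.4 FPKM in A4 and at 11.3 and 12 FPKM in A12 (log2 change 0.99 ± 0.19, adjusted p = 0.107). Of 13 tested chorion genes, which make the outer layer, 12 were above 0 with a median of 0.89, which ran from 0.42 to 1.48 over the fits without 1 adult library. Both A4 libraries were above both A12 libraries in only 3 of the 13, beside 16.4% of all tested genes. Cp19 stood at 2020 and 1130 FPKM in A4 and at 432 and 350 FPKM in A12 (log2 change 1.99 ± 0.35, adjusted p = 0.083), whereas Cp15, at 4540 and 1080 against 2340 and 6240 FPKM, differed more between replicates than between genotypes. The yolk protein genes Yp1, Yp2 and Yp3 had log2 changes of 0.17, 0.05 and -0.40 and none passed.

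All 18 tested genes of the vacuolar proton ATPase, the pump that acidifies compartments within the cell, lay below 0, against 52.8% of all tested genes. Their median log2 change was -0.29, and it was -0.14 after quantile normalization. Of 30 oxidative phosphorylation genes, whose products make ATP in mitochondria, 26 lay below 0, with a median of -0.26. That median was -0.02 after quantile normalization and ran from -0.53 without A12 adults replicate 1 to -0.0043 without A12 adults replicate 2. Of 21 glycolysis genes 10 lay above 0 and the median was -0.02. None of these 3 lists had a call. Muscle, neuronal, ribosomal protein, proteasome, heat shock, cytochrome P450 and glutathione transferase genes had no calls either, and their medians lay between -0.17 and -0.02. The medians of these lists turned above 0 in at least 1 fit without an adult library or after quantile normalization. The neuronal and the mitochondrial ribosomal protein lists were exceptions, with medians that stayed below 0.

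**Figure D3:**
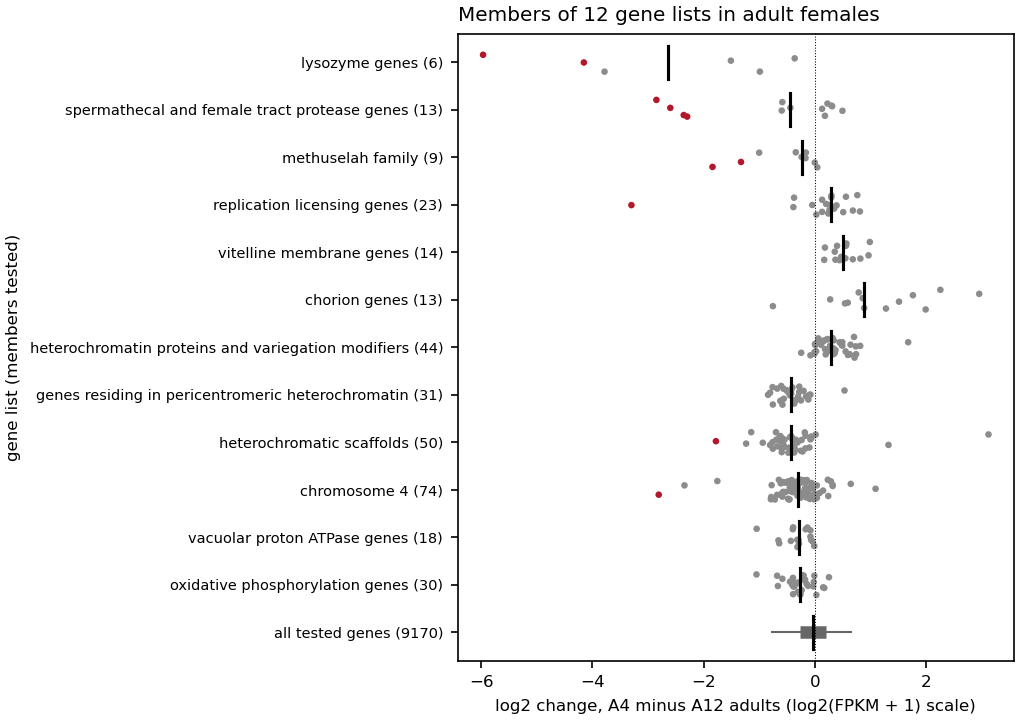
Log2 change between A4 and A12 adult females (horizontal axis) for each tested member of 12 gene lists, as points on lines of their own, with called genes in red and the list median as a black bar. All tested genes are shown at the bottom by their median, the interquartile range (thick line) and the range from percentile 5 to percentile 95 (thin line).

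The 27 called genes listed at 0 in both libraries of a group comprised 19 at 0 in A4 and 8 at 0 in A12. No fold can be given for them, because an exact 0 in such files can be a failed estimate. Of the 27, 26 overlapped another gene model, 96.3%, against 14 of the other 47 calls, 29.8%, and 4049 of all tested genes, 44.2%. The part of this overlap in the calls was not tested. Of the 28 tested models that overlap one of them, 1 was called, CG9897, and their median log2 change was -0.12. In all, 131 tested genes were at 0 in both libraries of 1 adult group and not of the other, and 115 of these overlapped another model, 87.8%.

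The most abundant of them was the small nucleolar RNA snoRNA:Psi28S-1135e, a guide for changing uridine to pseudouridine in ribosomal RNA, whose host gene is RpS5a on the X. It was listed at 0 in both A4 adult libraries and at 4640 and 8910 FPKM in A12 (adjusted p = 0.000138). In larvae it stood at 11.7 and 10.6 FPKM in A4 and at 7090 and 3500 FPKM in A12, so that the difference was present at both stages. RpS5a itself did not pass, with a log2 change of -0.17 ± 0.32 (adjusted p = 0.856). CG43680 was listed at 0 in A4 and at 148 and 223 FPKM in A12 (adjusted p = 0.00028).

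Of protein-coding genes with known roles at 0 in A4, CG2118, listed as Mccc1, a subunit of the carboxylase that breaks down leucine, stood at 30.0 and 25.3 FPKM in A12 (adjusted p = 0.00028). Art8, an arginine methyltransferase gene, stood at 23.8 and 15.2 FPKM (adjusted p = 0.00028) and CG14701, listed as Dph3, at 15.7 and 11.7 FPKM (adjusted p = 0.000777). The arginase gene arg stood at 12.2 and 8.06 FPKM (adjusted p = 0.00117). The serine protease gene CG31219 stood at 10.7 and 11.1 FPKM (adjusted p = 0.000598). CG32379, at 12.5 and 7.77 FPKM (adjusted p = 0.00117), is the 1 of the 27 whose model overlaps no other.

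In the opposite direction, CG14040, listed as senju, was at 0 in A12 and at 14.3 FPKM or more in both A4 libraries (adjusted p = 0.000631). CG12204 stood at 18.8 and 12.7 FPKM (adjusted p = 0.00162), and crim at 10.1 and 7.63 FPKM (adjusted p = 0.00117). Arp5, an actin-related protein of the INO80 chromatin remodelling complex, stood at 8.12 and 8.03 FPKM (adjusted p = 0.00161), and CG12272, listed as Strump, a subunit of the WASH complex, at 7.76 and 8.36 FPKM (adjusted p = 0.000777). These 5 genes and the 8 named at 0 in A4 passed whichever library was left out, as did 19 of the 27.

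**Figure D4:**
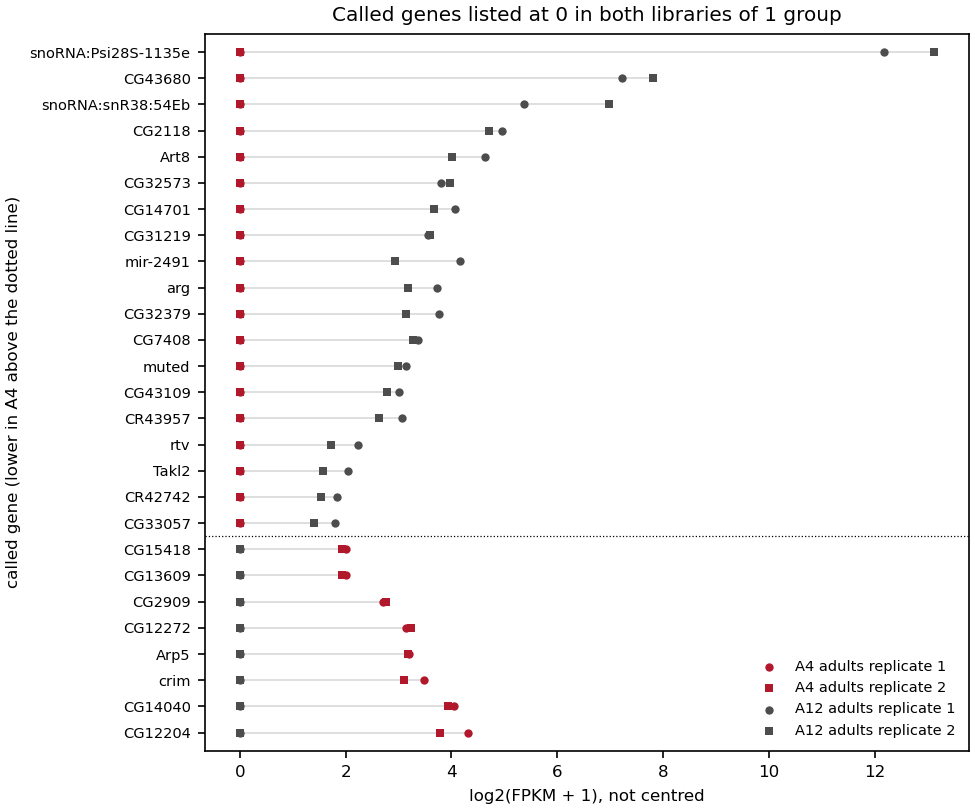
The 27 called genes listed at 0 in both libraries of 1 adult group, each on its own line, with log2(FPKM + 1) in the 4 adult libraries on the horizontal axis (A4 red, A12 grey). The 19 genes above the dotted line were at 0 in both A4 libraries and the 8 below it at 0 in both A12 libraries.

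The calls lay on all large arms, and the share called was lower on the rearranged chromosome than on the other large arms. The arms of chromosome 2 held 13 calls among 3558 tested genes, 0.365%, beside 0.807% of all tested genes. On 2L 8 of 1642 were called, 0.487%, and on 2R 5 of 1916, 0.261%. The other large arms held 21 of 1747 on 3L, 1.2%, 20 of 2229 on 3R, 0.897%, and 18 of 1512 on the X, 1.19%. The reason for this difference was not tested. Among windows of 1 Mb with at least 20 tested genes, the one with the largest share of calls lay on the X and held CG32523, which rose, and CG14615. CG14615 fell from 24.6 and 25.3 FPKM in A12 to 10.6 and 9.41 FPKM in A4 (log2 change -1.20 ± 0.15, adjusted p = 0.0187), and it failed without A4 adults replicate 1 (0.094) or 2 (0.146) and without A12 adults replicate 2 (0.106). Neighbouring calls within 50 kb formed 9 pairs, all with the same direction in both genes, among them the protease pairs described above, LysC with LysX, CG32364 with Dscam4 and CG9682 with CG18404. Of the 9 pairs, 4 hold a gene listed at 0 in both libraries of a group, and 1, CR42742 with CG9897, is of overlapping models. Since 51 of the 74 calls were lower, a shared direction is common, and how many such pairs position alone would give was not tested. Genes between paired calls did not all go the same way. Between CG17751 and CG31219, CG17752 had a log2 change of -0.91 and CG16727 of 1.12, and neither passed. CG8012, between CG32364 and Dscam4, also lay on the other side of 0 from that pair.

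The larval libraries give the same contrast at another stage. Of the 74 adult calls, 24 were also called in the same direction between A4 and A12 larvae, 32.4%, 8 were called in the opposite direction and 42 were not called. These 24 were 1.22% of the 1967 larval calls, where 21.5% of the 9170 genes passed, 12.7% higher and 8.7% lower in A4. Without A4 larvae replicate 2, the library with roX and testis gene RNA, the larval calls numbered 1303, and 21 of the 74 went the same way and 5 the opposite way. LysC had a larval log2 change of -6.23 and LysX of -6.78, beside -5.97 and -4.15 in adults. The other lysozyme genes did not all lie below 0 in larvae, with log2 changes of -0.75 for LysB, -0.12 for LysP, 0.79 for LysE and 2.62 for LysS. mth had a log2 change of -1.85 in larvae and -1.84 in adults, and CG1304 rose in both, by 5.38 and 3.76. CG3588 rose by 6.88 in larvae, from 0.077 and 0.262 FPKM in A12 to 87.6 and 110 FPKM in A4.

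Other adult calls were not called in larvae. Mcm10 stood at 0.126 and 0.22 FPKM in A4 larvae and at 2.05 and 1.06 FPKM in A12 larvae, a log2 change of -0.63 (adjusted p = 0.0981). Jon65Aii had a larval change of 0.70 (adjusted p = 0.193) and CG31681 was listed at 0 in 3 larval libraries and at 0.063 FPKM in the other, A4 larvae replicate 2. Median centring shifts larval changes upward, since their median over the tested genes was 0.05 with centring and -0.42 without it. Genes at 0 in every larval library, such as CG2118, therefore carry a larval change of 0.47 that is only this shift.

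**Figure D5:**
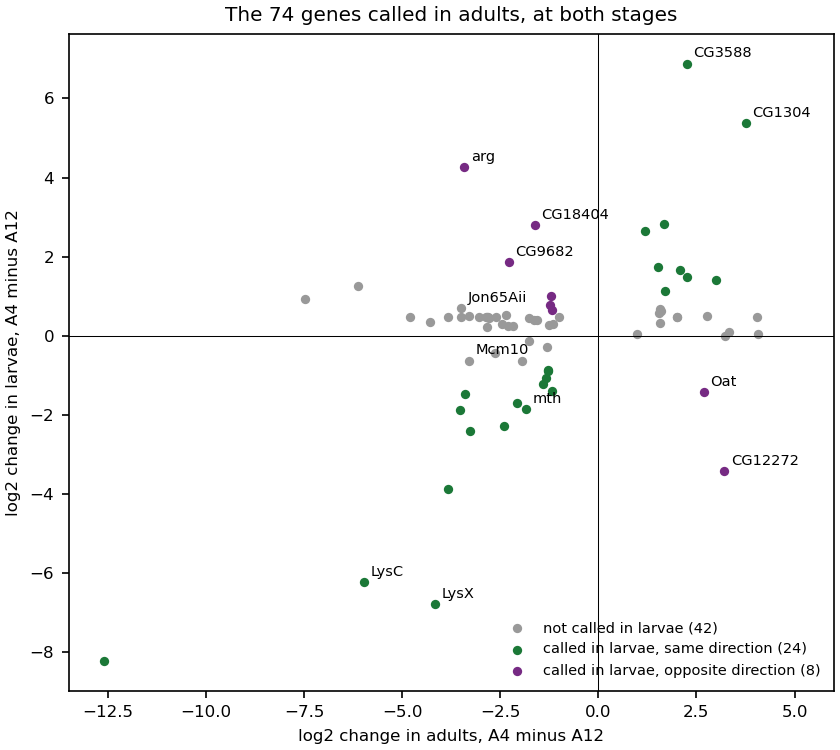
Log2 change between A4 and A12 in larvae (vertical axis) against that in adult females (horizontal axis) for the 74 genes called in adults, coloured by their larval call. The 24 green genes were called the same way at both stages, the 8 purple genes the opposite way, and the 42 grey genes were not called in larvae.

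The authors' deposited table of log2 ratios listed 51 of the 74 called genes for adults, and all 51 ratios had the sign of the call. The ratios describe the same libraries, which did not overlap between groups in any called gene. This agreement in sign was thus fixed in advance and is no separate support. The table gave -3.57 for Jon65Aii, -2.54 for mth, 4.65 for CG1304 and 2.9 for Oat. The authors' deposited table also gave finite ratios for 20 of the 27 genes listed at 0 in a whole group, from -8.15 for CG2118 to 8.38 for CG14040.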

How the data were processed

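Per the labels' protocols, polyA RNA was depleted of ribosomal RNA with Ribo-Zero and turned into libraries with the TruSeq kit. The authors deposited FPKM values for each of 8 libraries, and per the submitters' processing notes Bowtie, Bowtie2, TopHat 0.6, Cufflinks and build dm3 were used. No source used here gives their order, options or strand setting. A further table of log2 ratios of A4 to A12 was deposited by the authors, with no account of how zeros were treated in the sources used here.

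The deposited status was failed or high-data in at least 1 library for 17 genes, which were left out. Of the rest, 9170 averaged 1 FPKM or more in the 4 adult libraries and were tested, while 6109 were not. Values were put on the log2(FPKM + 1) scale, so the pseudocount was 1, and centred on each library's median. limma 3.58.1 in R 4.3.3 fitted all 4 groups at once, eBayes followed the trend of variance with mean, and a gene was called at a Benjamini-Hochberg adjusted p under 0.05. Summaries were computed in Python 3.11.15 with numpy 2.4.6 and pandas 2.3.3, and plots were drawn with matplotlib 3.10.9. On simulated data with 50 changed genes for each size among 9170, true log2 changes of 0.5, 1, 2 and 3 were found in 0%, 32%, 86% and 92% of genes for the adult comparison, with 3 false calls in all.

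The 0-based starts in the deposited files were raised by 1, and gene names beyond the files, biotypes and protease synonyms came from RefSeq Release 6, matched by name for all 74 calls. In an adult library 70.6% to 81.4% of the summed FPKM lay in small RNA genes, of which 3 were called. In weakly expressed genes 1 FPKM stood for about 16.2 to 25.3 fragments in an adult library, as read from the deposited confidence bounds.

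The comparison, the gene lists and the tests were chosen with earlier results of these data known. The rule for named genes took the 12 largest called changes each way, up to 4 called members of a list or the member with the smallest p, the calls of the 1 Mb window with the largest share, and w, lt, rl, Mcm10, Su(var)3-9 and the gene of HP1a. Genes called in each fit with a library left out, neighbouring pairs and genes with opposite changes in larvae were named after their values were seen. So were CG8012, CG13822 and uncalled relatives of called genes. Lists are described by counts and medians, with no test. The alternatives were pseudocounts of 0.1 and 5, other filters, no centring, quantile normalization, eBayes without trend or robust, the adult libraries only, a block for replicate number, fits without each library in turn, an adjusted p of 0.1, a minimum change of 1, and fits without small RNA genes or without genes at 0 in any adult library. A fit without genes at 0 in both libraries of 1 adult group was added after seeing the data. Replicate numbers did not pair the libraries: the deviations of replicate 1 from 2 in A4 and A12 adults correlated at -0.0263 across genes.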

Additional observations from a re-analysis of the deposited data

Results flagged for a closer look

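The A4 minus A12 change differed between adults and larvae, by the interaction contrast of the same limma fit at an adjusted p under 0.05, in 55 of the 74 adult calls. Of these 55, 11 were listed at 0 in all 4 larval libraries, so that their larval change is only the shift from median centring. For 8 of them the gene was called in opposite directions at the 2 stages. The 2 comparisons were made in the same fit, and all larval changes carry that shift.

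The arginase gene arg was listed at 0 in A4 adults and at 12.2 and 8.06 FPKM in A12 adults, while in larvae it stood at 10.8 and 15.4 FPKM in A4 and was listed at 0 in A12. The adult minus larval change was -7.68. CG12272, listed as Strump, was the reverse, at 7.76 and 8.36 FPKM in A4 adults and 14.0 and 13.6 FPKM in A12 larvae and at 0 in the A12 adult and A4 larval libraries, a difference of 6.64. Both models overlap others, arg with elav and CG4293 and CG12272 with Pgm, and the part of the overlap was not tested. Both differences rest on listed zeros and on the pseudocount and give no fold.

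Oat was higher in A4 adults but lower in A4 larvae, at 61.3 and 73.7 FPKM against 228 and 280 FPKM in A12 larvae, and the difference of the changes was 4.12. The neighbours CG9682 and CG18404 were lower in A4 adults and higher in A4 larvae. CG9682 stood at 481 and 514 FPKM in A4 larvae against 168 and 209 FPKM in A12 larvae, a difference of -4.14, and CG18404 at 7.55 and 12.8 against 1.67 and 0.729 FPKM, a difference of -4.42. CG14615 stood at 1.92 and 2.17 against 1.16 and 1.01 FPKM in larvae, a difference of -2.22. CG9921, at 7.75 and 8.55 against 8.24 and 4.83 FPKM in larvae, and CG9836, at 31.8 and 35.4 against 34.2 and 24.9 FPKM, had differences of -2.02 and -1.84, but their larval libraries overlapped before centring.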

How the results depend on the processing

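As reported, 23 genes were called higher and 51 lower in A4 adults. The higher count moved to 15 with a pseudocount of 0.1, to 7 with a mean of at least 5 FPKM, to 11 with the adult libraries only and to 39 at an adjusted p of 0.1. Without genes listed at 0 in both libraries of 1 adult group, a fit added after seeing the data, 12 were higher and 30 lower. Apart from the fits with a library left out or with a block, the other planned settings stayed within 1.5 times both counts. With each library left out in turn, 18 to 39 genes were called higher and 35 to 81 lower, with 39 and 81 reached without A12 adults replicate 1. With replicate number as a block in the fit of all 4 groups the counts were 25 and 48, and with the block and the adult libraries only they were 10 and 33. The numbers do not pair the libraries. Of the 74 calls, 54 passed with a pseudocount of 0.1, 66 without centring, 66 after quantile normalization and 40 with the adult libraries only, and none changed sign in any fit. The sign turned for some uncalled genes with 1 library left out, where the log2 change ran from -1.75 to 0.24 for Cp15, -0.25 to 0.0901 for the gene of HP1a, -0.0081 to 3.37 for Su(var)3-9, -0.15 to 0.50 for Yp1 and -0.24 to 0.35 for Yp2. Just inside the threshold lay CG32523, CG16732 and CG33057, at adjusted p-values of 0.0431, 0.0453 and 0.0479, and just outside CG10725, Fuca and LysB, at 0.0501, 0.0535 and 0.0567. With 2 libraries a group, small differences were mostly not detectable. In the simulated data true log2 changes of 0.5 and 1 were found in 0% and 32% of genes, and a change of 2 in 86%. The smallest called change was 0.99.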
